A study of Homo sapiens with 9 samples.

Results

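OVCAR3 cells, an established line from a human high-grade serous ovarian carcinoma, were compared between cultures that carried 1 of 2 short hairpin RNAs (shRNAs) against the same gene, GPX3. The members are the 3 libraries of hairpin 78 (sh78) and the 3 libraries of hairpin 76 (sh76), 6 of the 9 libraries of the series, chosen by the hairpin number in their labels. The other 3 libraries carry a scramble hairpin, which has no intended target, and serve here to show on which side of the control each hairpin culture lies. All 9 were poly-A selected RNA sequencing libraries without strand information, made from cells cultured for 72 h. All groups share the OVCAR3 background and a hairpin vector. How many transductions or clones each hairpin culture came from is not given in the sources used here, so an effect of a hairpin and a difference between cultures cannot be told apart. The labels number the replicates 1 to 3 in each group but do not say that they are separate cultures, so p-values measure the spread between these libraries, which may be technical.

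GPX3 encodes a secreted, selenium-containing glutathione peroxidase that reduces hydrogen peroxide and lipid hydroperoxides outside the cell. A short hairpin is processed by the enzyme Dicer into a small RNA that guides cleavage or silencing of its target, and it can also act on transcripts that match its seed. For this reason 2 hairpins against 1 gene are commonly used side by side, and the contrast between them shows what differs when the intended target is the same. Serous carcinoma cells carry simple epithelial keratins, and cultures can also hold transcripts of stratified (squamous) epithelium, such as keratin 6 and calcium-binding S100 proteins, and of mesenchymal cells.

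The libraries held 14652965 to 21327562 reads assigned to genes, with 15903902 to 21327562 for sh76 and 14652965 to 18378585 for sh78. Mitochondrially encoded genes took 4.242% to 5.164% of counts. Libraries with the same replicate number deviated together in all groups, with correlations of 0.142 to 0.391 in 9 same-numbered pairs against -0.31 to 0.064 in 18 other pairs, so the replicate number was kept as a block in the fit. The 27 listed ovarian carcinoma markers, of which 26 were tested, summed to 10100 to 12200 CPM (read counts scaled to library size) over all groups. Markers of other cells were low: the 10 fibroblast markers summed to 28.4 to 58.0 CPM, of which COL1A1 made 89.5%, the 10 haematopoietic markers to 2.32 to 5.01 CPM, and the 6 mesothelial markers to 36.1 to 54.1 CPM. HBB and the endothelial marker EMCN were at 0 in all 9 libraries. The 8 endothelial markers, of which KDR made 55.8%, summed to 20.2 to 21.8 CPM in scramble, 20.6 to 25.8 CPM with sh76 and 25.6 to 34.4 CPM with sh78, and the part of this in the results was not tested. Fold changes are sh78 relative to sh76 throughout, on the log2 scale with their standard error (SE). A gene is called higher or lower when its p from edgeR's quasi-likelihood test, adjusted by Benjamini-Hochberg over 17023 tested genes, is under 0.05.

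The targeted transcript was lower with both hairpins and lowest with sh78. GPX3 (ENSG00000211445, chr5:151020438-151028993, plus strand, GRCh38) stood at 173, 109 and 117 CPM in scramble replicates 1, 2 and 3, at 56.8, 55.2 and 55.5 CPM with sh76 and at 35.3, 28.4 and 28.3 CPM with sh78. The 3 groups did not overlap. Relative to scramble the log2 fold change was -1.22 (adjusted p = 0.000243) with sh76 and -2.11 (adjusted p = 1.63e-05) with sh78. The log2 fold change of sh78 against sh76 was -0.88 (SE 0.13, adjusted p = 0.00292), so that 54.2% of the sh76 level was present with sh78. Every contrast described here therefore also compares a lower with a higher residual GPX3 level, and this cannot be told apart from other differences between the hairpins. GDF15, a secreted stress-induced member of the TGF-beta superfamily named in the title of the series, stood at 13.4, 14.2 and 13.2 CPM in scramble, 1.79, 4.55 and 4.44 CPM with sh76 and 1.19, 1.65 and 2.403 CPM with sh78. Both hairpin cultures lay far below scramble and overlapped each other. GDF15 was called lower with sh78 than with sh76 with the replicate block (log2 fold change -1.06, SE 0.25, adjusted p = 0.00334), and the call was lost without it (adjusted p = 0.0997).

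Although both cultures were made against GPX3, 3117 of 17023 tested genes (18.3%) differed between them, 1650 higher (9.69%) and 1467 lower (8.62%) with sh78. The median log2 fold change over all tested genes was -0.0002. Of the called genes, 2803 were protein coding, and 3066 had the same sign in all 3 same-numbered pairs. Most differences were small: 279 passed a log2 fold change of 1 in size, 105 higher and 174 lower. Without the replicate block 629 genes were called (3.70%), 336 higher (1.97%) and 293 lower (1.72%), and 625 of these were among the 3117. Without sh78 replicate 1 the count with the block was 1922. The lists with a larger share called than all genes included, on the lower side, keratins of stratified epithelium, S100 proteins, kallikrein-related peptidases, glycolysis, hypoxia-induced genes and immediate early genes, and, on the higher side, neuronal, mesenchymal, TGF-beta and interferon-stimulated genes. Matrix genes had a larger share called than all genes in both directions.

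**Figure D1:**
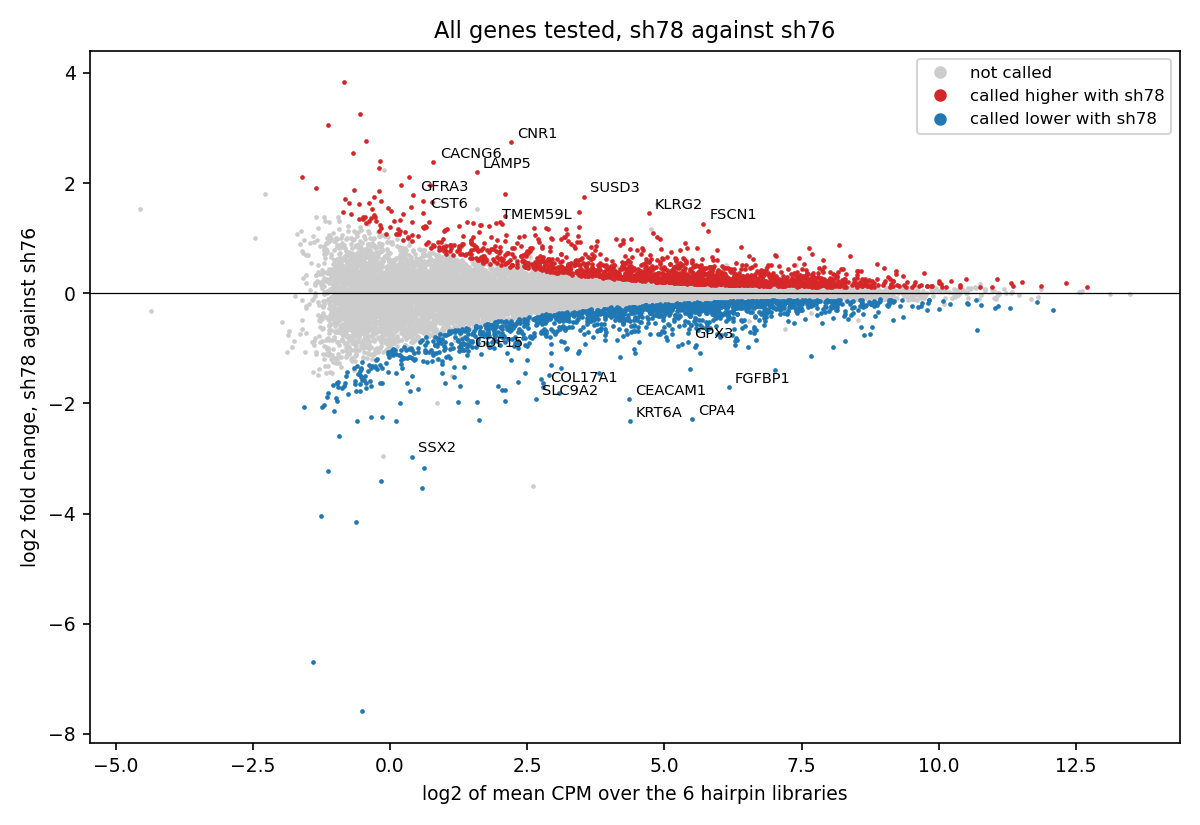
Log2 fold change of sh78 against sh76 (vertical axis) against the log2 of mean CPM over the 6 hairpin libraries (horizontal axis). Each point is 1 of 17023 tested genes, coloured by its call. Labels mark GPX3, GDF15 and most of the 20 protein-coding genes named for the largest changes. The 1650 genes called higher and the 1467 called lower lie on both sides of 0, most of them within a log2 fold change of 1.

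**Figure D2:**
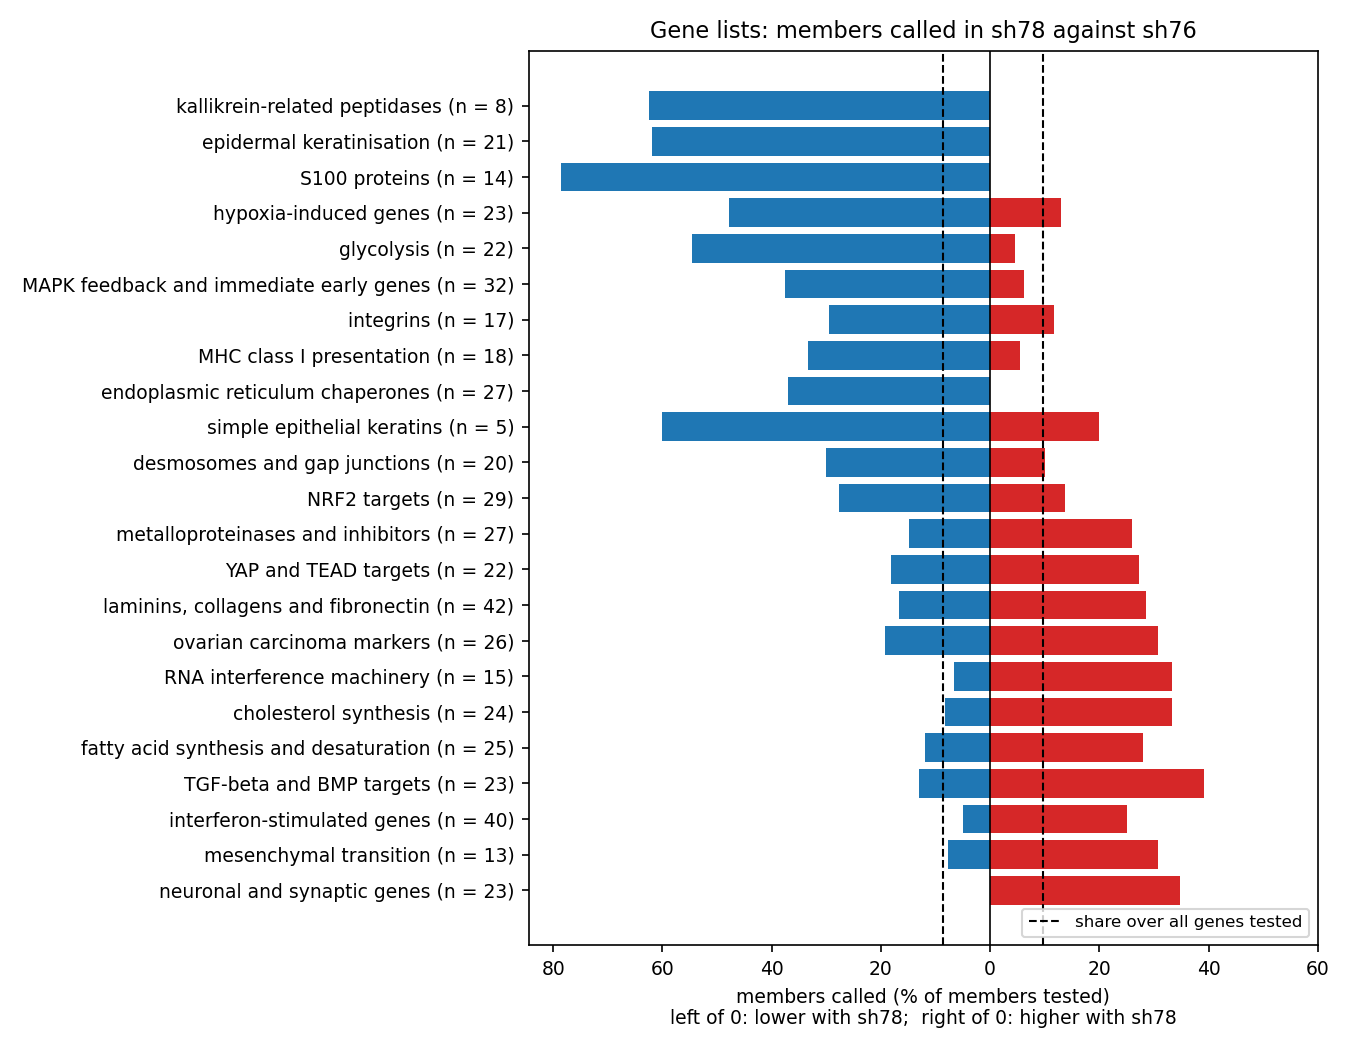
Share of the tested members of each gene list called lower (blue, left) or higher (red, right) with sh78 than with sh76, with the replicate block, for the lists with at least 5 tested members and at least 25% called in 1 direction. The n is the number of tested members, and the dashed lines mark the shares over all genes, 8.62% lower and 9.69% higher. S100 proteins reach 78.6% lower with none higher, and neuronal and synaptic genes 34.8% higher with none lower.

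Many genes of stratified epithelium were lower with sh78 than with sh76. Of 21 tested genes on the epidermal keratinisation list (38 in the table), 13 were lower with sh78 (61.9%, against 8.62% of all genes), none was higher, and the median log2 fold change was -0.78. KRT6A (chr12:52487174-52493257, minus strand, GRCh38), a keratin of activated and wounded epidermis, stood at 27.2, 29.4 and 35.7 CPM in scramble, 35.2, 30.2 and 37.6 CPM with sh76 and 6.09, 7.08 and 7.54 CPM with sh78. The sh78 libraries all lay below the others, while sh76 and scramble overlapped. Its log2 fold change was -2.32 (SE 0.10, adjusted p = 2.35e-22), a 4.99-fold lower level. Its near-identical neighbours KRT6B and KRT6C had few counts in every library. How reads shared between these genes were counted is not given. Their part in the KRT6A values was not tested.

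The other keratins of the list followed with smaller or less certain levels. KRT15, a keratin of basal cells, stood at 24.4, 26.9 and 24.6 CPM with sh76 and 9.59, 12.2 and 12.3 CPM with sh78 (log2 fold change -1.16 ± 0.10 SE, adjusted p = 2.78e-12). TGM1, the transglutaminase that cross-links the cornified envelope, stood at 12.1, 10.3 and 10.3 CPM with sh76 and 4.201, 3.85 and 3.703 CPM with sh78 (log2 fold change -1.48 ± 0.15 SE, adjusted p = 2.03e-10). In both genes no sh78 library reached the lowest sh76 library, and scramble was close to sh76, at 24.5, 23.2 and 20.2 CPM for KRT15 and 11.6, 6.57 and 9.19 CPM for TGM1. KRT13 and KRT16, which fall outside the naming rule because of their low level, had mean CPM of 2.77 ± 0.958 (SD, n = 3) and 1.802 ± 0.479 with sh76 and 0.299 ± 0.117 and 0.366 ± 0.177 with sh78. KRT4, a keratin of moist squamous epithelium that is also outside the rule, went from 214, 302 and 324 CPM with sh76 to 87.3, 166 and 135 CPM with sh78, and scramble, at 148, 199.6 and 233 CPM, overlapped both. Of the 8 members that were not called, KRT5, the basal partner keratin, had a log2 fold change of -0.40 (adjusted p = 0.107), and KRT80 and KRT10 had values of -0.02 and 0.01. TP63, the master regulator of stratified epithelium, had a mean of only 1.24 ± 0.494 CPM (SD, n = 3) with sh76. Without the block 6 members of the list were called lower and none higher.

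Simple epithelial keratins, the keratins of glandular cells, were lower by less. KRT19 stood at 1531, 1583 and 1670 CPM in scramble, 1906, 2057 and 2168 CPM with sh76 and 1143, 1309 and 1398 CPM with sh78. The groups did not overlap, and scramble lay between the hairpins. The log2 fold change was -0.67 (SE 0.04, adjusted p = 1.83e-17). KRT8 had a log2 fold change of -0.31 (SE 0.04, adjusted p = 2.07e-08 with the block and 0.0546 without), and it overlaps KRT18, whose counts are 38.3% of its own. Of the 5 members tested, 3 were lower and 1 was higher, and without the block 1 was lower and none higher.

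By position, 6 of 11 tested type II keratins in the chromosome 12 cluster (chr12:52168996-52952901) and 5 of 8 type I keratins in the chromosome 17 cluster (chr17:40818117-41624842) were lower, and 1 type I keratin was higher. The 3 other tested genes within these spans (2 and 1) were not called.

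The S100 proteins, small calcium-binding proteins that are abundant in stratified epithelium, were mostly lower with sh78. Of 14 tested list members, 11 were lower with sh78 (78.6%) and none was higher, with a median of -0.72, and 13 of the 14 had every sh78 library below every sh76 library, against 10.9% of all genes. All but 1 of the 14 are S100A genes on chromosome 1. The remaining member, S100PBP, encodes a binding protein of S100P and is not itself an S100 protein. S100A8 and S100A9, both called lower, are also on the epidermal keratinisation list and are counted in both lists. In the S100A cluster (chr1:151982915-153632039), 11 of 13 tested S100A genes were lower, and 6 other tested genes in the same span were not called. S100A10 and S100A13 were the S100A genes that did not pass, with adjusted p of 0.0507 and 0.375. Without the block 5 were called lower, and without sh78 replicate 1 the count was 7.

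S100A6, or calcyclin, was the most abundant of the family in counts. It stood at 319, 274 and 308 CPM in scramble, 420.5, 383 and 414 CPM with sh76 and 214, 229 and 224 CPM with sh78, and the groups did not overlap. Its log2 fold change was -0.87 (SE 0.05, adjusted p = 7.53e-18). S100A9, a subunit of calprotectin, stood at 10.3, 7.28 and 10.6 CPM in scramble, 25.7, 31.1 and 30.7 CPM with sh76 and 11.6, 16.99 and 15.3 CPM with sh78 (log2 fold change -1.01 ± 0.12 SE, adjusted p = 5.39e-07). Here both hairpin cultures lay above scramble and sh76 lay above sh78. Its calprotectin partner S100A8 was sparse, at 1.48, 2.13 and 3.15 CPM with sh76 and 0.593, 1.1 and 1.17 CPM with sh78, and its call (log2 fold change -1.25, adjusted p = 0.00435) was lost without the block, without sh76 replicate 3 and without sh78 replicate 1. S100A14, outside the naming rule, was lowest with sh78, at 57.4 ± 14.6 CPM (SD, n = 3) with sh78 against 100.1 ± 19.7 with sh76 and 101 ± 27.8 in scramble.

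Kallikrein-related peptidases are secreted serine proteases that shed stratified epithelium and are frequently raised in ovarian carcinoma. Of 8 tested, 5 were lower with sh78 (62.5%), none was higher, and the median was -0.91. All 8 lie in 1 cluster at chr19:50943303-51084245. KLK5 (chr19:50943303-50953093, minus strand, GRCh38), which activates other kallikreins, stood at 344, 320 and 335 CPM in scramble, 334, 359.9 and 372 CPM with sh76 and 167, 179 and 198 CPM with sh78 (log2 fold change -0.97 ± 0.05 SE, adjusted p = 6.06e-20). Scramble and sh76 overlapped, and all 3 sh78 libraries lay below both. KLK6, by contrast, was lower than scramble with both hairpins: 34.3, 36.3 and 39.4 CPM in scramble, 14.6, 14.4 and 15.03 CPM with sh76 and 7.76, 7.22 and 5.72 CPM with sh78 (log2 fold change -1.08 ± 0.11 SE, adjusted p = 5.87e-10). KLK7 and KLK10 had log2 fold changes of -1.05 and -0.96 (adjusted p = 1.76e-08 and 1.45e-13). KLK11, KLK13 and KLK14 had means of 0.797 ± 0.223, 0.452 ± 0.248 and 0.615 ± 0.281 CPM (SD, n = 3) with sh76 and were not called. The count of lower members was also 5 without the block and in every fit that left out 1 library.

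**Figure D3:**
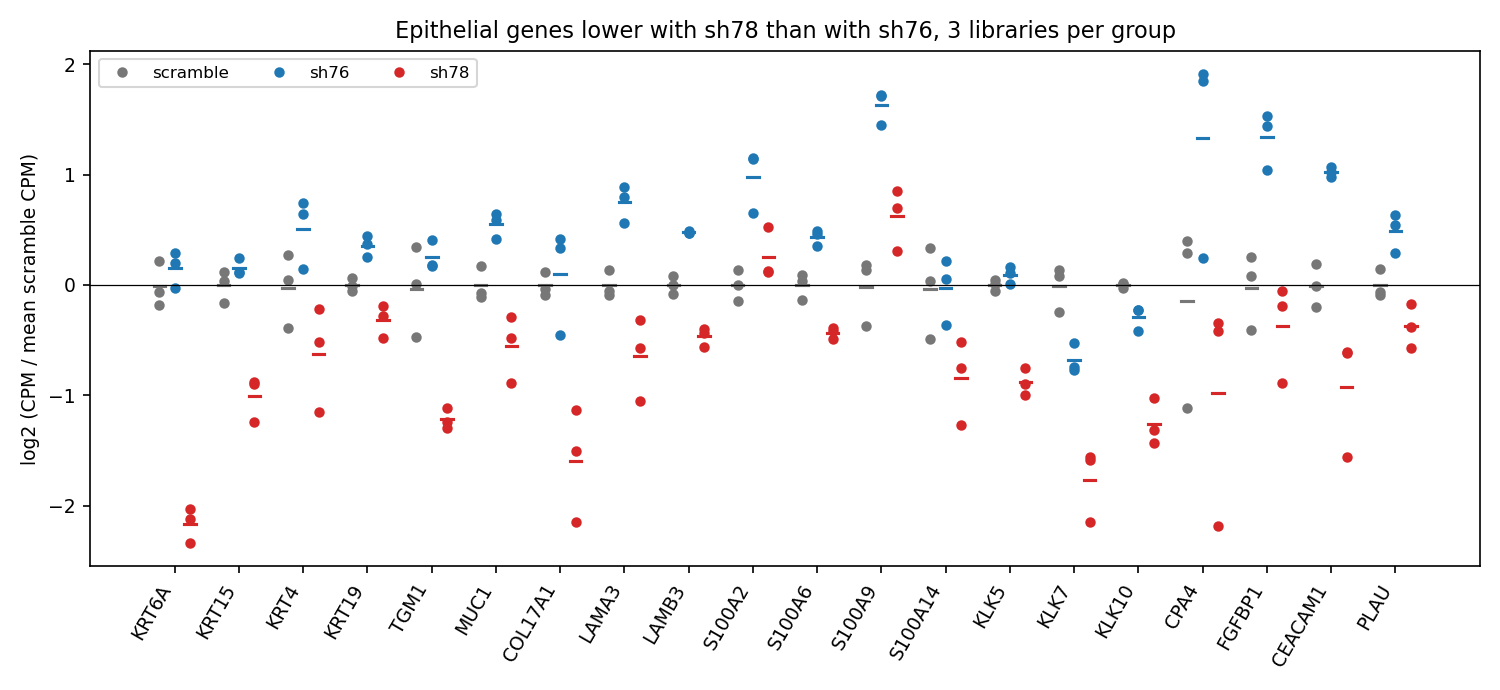
Log2 of CPM relative to the mean CPM of the 3 scramble libraries (vertical axis) for 20 epithelial genes, 3 libraries per group (points) with the group mean (short line). The genes were picked for lower levels with sh78, so the shared direction was set by the choice. Keratins without this separation, such as KRT5, which was not called, and KRT23, which was called higher, are not shown. The sh78 points lie below the sh76 points for every gene shown. KRT6A, TGM1 and KLK5 have sh76 near scramble, S100A9, CEACAM1 and FGFBP1 have sh76 above it, and KLK7 and KLK10 have both hairpins below it.

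Genes of the dermal-epidermal anchoring complex and secreted or surface proteins were among the largest differences. COL17A1, a transmembrane collagen of the hemidesmosome, stood at 9, 9.33 and 10.4 CPM in scramble, 6.97, 12.7 and 12.1 CPM with sh76 and 2.15, 3.37 and 4.35 CPM with sh78 (log2 fold change -1.69 ± 0.16 SE, adjusted p = 7.92e-11). LAMA3 (chr18:23689443-23956222, plus strand, GRCh38) and LAMB3 encode chains of laminin-332, the laminin of epithelial basement membrane. LAMA3 stood at 103, 106 and 121 CPM in scramble, 162, 192 and 203 CPM with sh76 and 52.9, 88.3 and 73.99 CPM with sh78, with no overlap between groups, and its log2 fold change was -1.39 (SE 0.13, adjusted p = 0.00263). LAMB3 stood at 102, 103 and 102 CPM with sh76 and 49.99, 55.9 and 54.5 CPM with sh78 (log2 fold change -0.94 ± 0.05 SE, adjusted p = 1.45e-17).

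The matrix list as a whole moved in both directions. Of 42 tested laminins, collagens and fibronectin genes, 12 were higher (28.6%) and 7 lower (16.7%), with a median of 0.04. The higher members included collagen IV chains, and the lower ones LAMA3, LAMB3 and COL17A1. LAMC3, a laminin gamma chain, stood at 11.5, 9.84 and 7.59 CPM with sh76 and 18.3, 16.9 and 16.9 CPM with sh78 (log2 fold change 0.86 ± 0.11 SE, adjusted p = 3.58e-08), and scramble, at 19.8, 17.5 and 17.6 CPM, overlapped sh78. The chains of collagen IV, COL4A1 and COL4A2, and the basement membrane collagen COL18A1, which are outside the rule, had log2 fold changes of 0.43, 0.27 and 0.41. FN1, fibronectin, was not called (0.51, adjusted p = 0.16). Without the block 5 members were called higher and 6 lower.

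AP-1, the factor that FOS belongs to, is a known regulator of stratified epithelial genes, and the LAMA3 promoter is shown because LAMA3 was among the largest changes in the matrix list. The sequence is from RefSeq (GRCh38.p14, plus strand, chr18:23872880-23872969), at a start site inside the span of the gene as deposited, and capitals mark the motif TGANTCA, searched on both strands, which reads the same on either strand apart from its middle base.
LAMA3: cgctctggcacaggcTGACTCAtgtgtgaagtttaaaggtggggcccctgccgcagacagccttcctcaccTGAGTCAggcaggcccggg
The window holds 2 matches. In windows of 250 bases before to 50 after the start site, 2 of 5 lower matrix genes with a window and 0 of 10 higher ones held the motif, as did 0 of 17 matrix genes that were not called. The motif was in 3 of 11 lower and 1 of 3 not called S100 genes, in 1 of 5 lower and 0 of 4 not called keratinisation genes, and in 0 of 4 lower and 0 of 3 not called kallikreins, against 7.17% of 11349 tested genes with a window. A match is a description of letters and shows no binding.

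Of 17 tested integrins, the receptors of these matrix proteins, 5 were lower (29.4%, against 8.62% of all genes). The 2 higher ones (11.8%) were near the share over all genes (9.69%). Without the block 1 was lower and none higher. ITGB8, which activates latent TGF-beta, had a log2 fold change of -0.49 (SE 0.04, adjusted p = 9.95e-13), and its mean CPM was 480 ± 52 (SD, n = 3) with sh78 and 672 ± 45.9 with sh76. ITGB5, a vitronectin receptor chain, stood at 428, 260 and 251 CPM in scramble, 250.3, 175 and 172 CPM with sh76 and 576, 283 and 278 CPM with sh78 (log2 fold change 0.87 ± 0.11 SE, adjusted p = 0.00455). Its replicate 1 library was the highest of each group, and the call was lost without the block (adjusted p = 0.292).

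Several secreted and surface genes outside these families were also lower. CPA4, a secreted carboxypeptidase, stood at 12.2, 32.2 and 34.9 CPM in scramble, 31.3, 94.7 and 99.1 CPM with sh76 and 5.82, 19.8 and 20.8 CPM with sh78 (log2 fold change -2.29 ± 0.07 SE, adjusted p = 6.13e-27). Replicate 1 was the lowest library of each group. No sh78 library reached the lowest sh76 library, but without the block the adjusted p was 0.164. CEACAM1, a cell adhesion molecule, stood at 13.8, 18.01 and 15.7 CPM in scramble, 32.3, 33.2 and 31.3 CPM with sh76 and 5.39, 10.4 and 10.3 CPM with sh78 (log2 fold change -1.92 ± 0.13 SE, adjusted p = 3.05e-09). FGFBP1, which releases fibroblast growth factors from the matrix, stood at 32.3, 45.4 and 51.3 CPM in scramble, 88.6, 117 and 124 CPM with sh76 and 23.3, 41.4 and 37.7 CPM with sh78 (log2 fold change -1.70 ± 0.06 SE, adjusted p = 2.35e-22). In both genes all sh76 libraries lay above scramble. The sh78 libraries lay below scramble in CEACAM1 and overlapped it in FGFBP1. PLAU, the urokinase protease, stood at 86.8, 110.5 and 104 CPM with sh76 and 47.7, 63 and 54.8 CPM with sh78 (log2 fold change -0.86 ± 0.07 SE, adjusted p = 2.65e-10).

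The 10 lowest also included genes of other kinds. AQP5, a water channel, overlaps an uncharacterised gene on the other strand, and these libraries carry no strand (log2 fold change -1.76, adjusted p = 2.65e-08). SSX2, a cancer-testis antigen with near-identical copies, rests on few reads: 1.11, 2.67 and 3.29 CPM with sh76 and 0.269, 0.0688 and 0.5197 CPM with sh78 (log2 fold change -2.97 ± 0.43 SE, adjusted p = 1.00e-06). GPAT3, an acyltransferase of triglyceride synthesis, stood at 6.42, 5.14 and 6.49 CPM with sh76 and 2.48, 1.44 and 1.62 CPM with sh78 (log2 fold change -1.68 ± 0.20 SE, adjusted p = 2.04e-08). No sh78 library reached the lowest sh76 library in SSX2 or GPAT3. The sodium-proton exchanger SLC9A2 stood at 13.7, 8.58 and 7.83 CPM with sh76 and 2.48, 3.37 and 2.08 CPM with sh78 (log2 fold change -1.92 ± 0.18 SE, adjusted p = 2.59e-11).

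Many glycolytic genes were lower with sh78 by small amounts. Of 22 tested genes, 12 were lower (54.5%) and 1 was higher, with a median of -0.18. PFKP, the platelet isoform of phosphofructokinase that controls flux, stood at 47.6, 59.5 and 53.9 CPM in scramble, 47.7, 52.9 and 54.8 CPM with sh76 and 19.9, 32.9 and 30.6 CPM with sh78 (log2 fold change -0.91 ± 0.08 SE, adjusted p = 1.68e-09). Scramble and sh76 overlapped and sh78 lay below both. LDHA, which makes lactate from pyruvate, stood at 661, 646 and 715 CPM in scramble, 785, 724 and 732 CPM with sh76 and 513, 585 and 568 CPM with sh78 (log2 fold change -0.43 ± 0.05 SE, adjusted p = 7.80e-08). Here sh78 lay below scramble and sh76 above it. HK2, an inducible hexokinase, had a log2 fold change of -0.43 ± 0.06 SE (adjusted p = 8.94e-08), which was lost without the block (adjusted p = 0.151). GAPDH, PGK1, PGAM1 and ENO1, outside the rule, had log2 fold changes of -0.24, -0.22, -0.20 and -0.15, and processed pseudogenes could take part of the reads of GAPDH and PGK1. PFKM, the muscle isoform of phosphofructokinase, was the member that was higher (log2 fold change 0.28 ± 0.05 SE). Without the block 2 members were called lower.

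Genes induced by hypoxia shared this direction: of 23 tested, 11 were lower (47.8%) and 3 higher, with a median of -0.22. ERO1A, the oxidase of endoplasmic reticulum disulfide formation, stood at 88.5, 98.4 and 103 CPM in scramble, 108, 128 and 126 CPM with sh76 and 67.4, 78.1 and 90.3 CPM with sh78 (log2 fold change -0.62 ± 0.05 SE, adjusted p = 6.85e-13). The sh76 libraries lay above scramble and the sh78 libraries below sh76. BNIP3L, a mitophagy receptor, stood at 109, 97.98 and 94.4 CPM with sh76 and 69.3, 67.95 and 74.6 CPM with sh78 (log2 fold change -0.51 ± 0.05 SE, adjusted p = 6.44e-10). VEGFA, outside the rule because its groups overlap, had a log2 fold change of -0.58 (SE 0.06), with higher values in replicate 1 of each group. EGLN3, CA12 and STC1 were the higher members (0.28, 0.38 and 1.97), and they are induced by hypoxia as well. All are outside the rule, EGLN3 and CA12 because their groups overlap and STC1 because of its low level. Without the block 3 members were called lower and 1, STC1, was called higher. The count of lower members was 7 without sh78 replicate 1.

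Glycolytic and hypoxia-induced promoters are known to carry the core of the hypoxia response element, and the windows of LDHA and PGK1 are shown for this reason. Capitals mark ACGTG, searched on both strands, where CACGTG gives a match on each strand at the same site; the windows are from RefSeq (GRCh38.p14, plus strand).
LDHA, chr11:18394363-18394512: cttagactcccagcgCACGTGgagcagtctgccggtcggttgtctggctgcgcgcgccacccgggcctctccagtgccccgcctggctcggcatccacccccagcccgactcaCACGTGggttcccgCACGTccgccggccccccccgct
PGK1, chrX:78104028-78104107: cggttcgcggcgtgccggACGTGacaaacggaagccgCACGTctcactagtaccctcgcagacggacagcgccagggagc
In LDHA the 5 matches fall at 3 sites. Of glycolytic genes called lower, 9 of 12 held ACGTG in the promoter window, as did 3 of 8 that were not called. Of hypoxia-induced genes called lower with a window, 8 of 9 did, and 3 of 6 that were not called. Over all 11349 windows the share was 31.6%. Many members of both lists are known targets of the hypoxia response, so these shares are no independent evidence.

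Some immediate early genes and feedback regulators of the MAPK cascade, which respond quickly to growth factor signalling, were lower with sh78. Of 32 tested, 12 were lower (37.5%), 2 were higher and 18 were not called, with a median of -0.16. FOS, a subunit of the AP-1 factor, stood at 7.78, 7.86 and 7.06 CPM in scramble, 12.3, 13.04 and 11.4 CPM with sh76 and 6.09, 5.502 and 6.69 CPM with sh78 (log2 fold change -1.01 ± 0.13 SE, adjusted p = 8.70e-08). EGR1, a zinc finger factor, stood at 21.1, 24 and 26.1 CPM in scramble, 37.4, 46.5 and 43.9 CPM with sh76 and 18.7, 28.1 and 24.7 CPM with sh78 (log2 fold change -0.85 ± 0.08 SE, adjusted p = 9.47e-12). In both genes sh76 lay above all other libraries, while sh78 overlapped scramble in EGR1 and lay below it in FOS. ETV4, an ETS factor induced by this cascade, was likewise highest with sh76 (log2 fold change -0.74 ± 0.08 SE, adjusted p = 1.23e-09), but DHX8 overlaps it on the other strand with 473.0% of its counts. DUSP10, a MAPK phosphatase, was called with the block and not without it (log2 fold change -0.68, adjusted p = 0.00041 and 0.0558). JUND and SPRED1 were called higher (0.26 and 0.23), and JUN, MYC and FOSL2 were not called (0.05, -0.09 and -0.08). Without the block 4 were called lower, and without sh76 replicate 2 the count was 8.

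**Figure D4:**
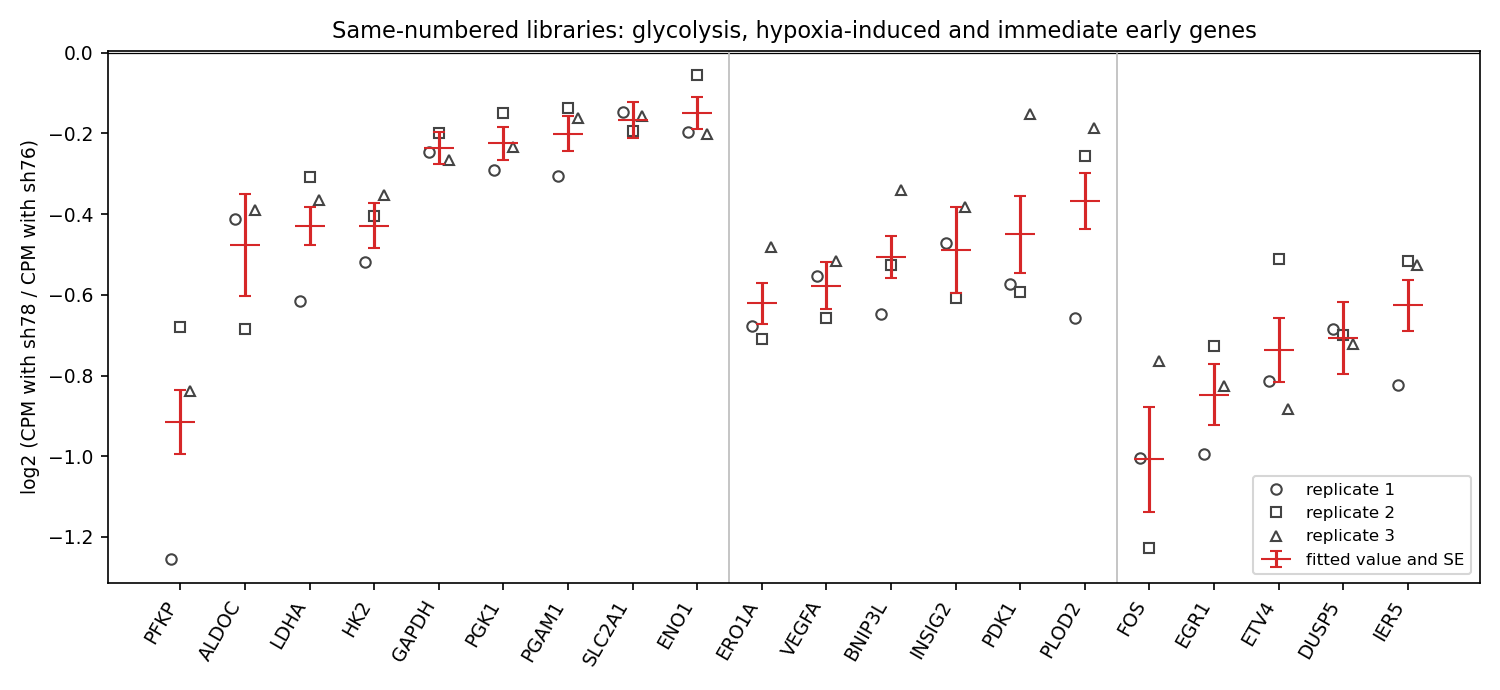
Log2 ratio of CPM with sh78 to CPM with sh76 within each replicate number (open symbols) for 20 genes of glycolysis (left), hypoxia (middle) and the immediate early response (right), with the fitted log2 fold change and its SE in red. The genes were picked from those lower with sh78, so their common direction was set by the choice. Members called higher, such as PFKM, EGLN3, CA12, STC1, JUND and SPRED1, are not shown. All points lie below 0, with the widest spread in PFKP.

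Some neuronal and synaptic genes were higher with sh78. Of 23 tested, 8 were higher (34.8%, against 9.69% of all genes), 15 were not called, none was lower, and the median was 0.27. CNR1, the brain cannabinoid receptor, stood at 2.19, 3.46 and 1.84 CPM in scramble, 0.7402, 2.18 and 0.716 CPM with sh76 and 8.08, 8.25 and 7.67 CPM with sh78, and sh78 lay above all other libraries. The log2 fold change was 2.75 (SE 0.23, adjusted p = 8.67e-12). LAMP5, a lysosome-associated protein of neurons, stood at 1.17, 0.872 and 1.15 CPM with sh76 and 4.04, 5.296 and 5.39 CPM with sh78 (log2 fold change 2.20 ± 0.25 SE, adjusted p = 4.88e-09). These levels are low, as was CACNG6, a calcium channel subunit (0.247, 0.63 and 0.763 CPM with sh76 and 1.13, 3.58 and 4.03 CPM with sh78, log2 fold change 2.38 ± 0.32 SE, adjusted p = 2.00e-07). Without the block 4 were called higher.

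Of the most abundant genes among the 10 highest, SUSD3, a surface protein, stood at 5.72, 9.095 and 11.2 CPM in scramble, 4.26, 6.3 and 5.39 CPM with sh76 and 16.7, 16.5 and 20.3 CPM with sh78 (log2 fold change 1.76 ± 0.14 SE, adjusted p = 6.56e-13). KLRG2, a C-type lectin, stood at 13.3, 15.7 and 12.4 CPM in scramble, 11.2, 18.7 and 11.98 CPM with sh76 and 35.6, 51.2 and 28.6 CPM with sh78 (log2 fold change 1.45 ± 0.09 SE, adjusted p = 6.02e-16). Scramble and sh76 overlapped in KLRG2, and sh78 lay above both. FSCN1, which bundles actin in migrating cells, stood at 39.1, 55.7 and 64.99 CPM in scramble, 22.9, 35.03 and 34.8 CPM with sh76 and 70.1, 81.4 and 68.7 CPM with sh78 (log2 fold change 1.26 ± 0.16 SE, adjusted p = 0.00572). In FSCN1 sh76 lay below scramble, and sh78 lay above it in every library.

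Genes of the mesenchymal transition and of TGF-beta signalling leaned the same way. Of 13 tested mesenchymal genes, 4 were higher (30.8%) and 1 was lower, and without the block 2 were higher and none lower. TWIST1, a transition factor, stood at 5.98, 5.05 and 4.76 CPM in scramble, 2.65, 4.797 and 3.15 CPM with sh76 and 7.76, 7.57 and 6.69 CPM with sh78 (log2 fold change 1.05 ± 0.17 SE, adjusted p = 1.22e-05). CDH2, or N-cadherin, stood at 48.5, 65.03 and 63.5 CPM with sh76 and 73.7, 88.3 and 79.2 CPM with sh78 (log2 fold change 0.45 ± 0.06 SE, adjusted p = 3.15e-08). VIM, vimentin, was not called (0.03, adjusted p = 0.866), and S100A4 was the lower member (-0.48, adjusted p = 1.08e-08 with the block and 0.0754 without). GJA1, the connexin of many mesenchymal and epithelial cells, had a log2 fold change of 0.42 (SE 0.05, adjusted p = 1.25e-08).

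Of 23 tested TGF-beta and BMP targets, 9 were higher (39.1%) and 3 lower, with a median of 0.12, and without the block 3 were called higher. TGFB2, the ligand, stood at 64.7, 58.4 and 50.3 CPM in scramble, 52.4, 48.9 and 41.8 CPM with sh76 and 73.4, 68.6 and 56.8 CPM with sh78 (log2 fold change 0.47 ± 0.06 SE, adjusted p = 1.19e-08). PMEPA1, an inhibitor of SMAD signalling that is induced by it, stood at 16.2, 18.5 and 20.2 CPM with sh76 and 25.3, 24.4 and 25.8 CPM with sh78 (log2 fold change 0.46 ± 0.09 SE, adjusted p = 0.000136). The BMP ligand BMP4 and the BMP target ID1 were lower (-0.77 and -0.33), the former not without the block (adjusted p = 0.128). Among metalloproteinases and their inhibitors, 7 of 27 were higher (25.9%) and 4 lower (14.8%), against 9.69% and 8.62% of all genes. Without the block 4 were higher and 2 lower. ADAMTS9, which cleaves proteoglycans, stood at 6.43, 5.63 and 5.05 CPM in scramble, 6.29, 5.91 and 4.87 CPM with sh76 and 11.7, 16.6 and 10.2 CPM with sh78 (log2 fold change 1.16 ± 0.14 SE, adjusted p = 1.40e-08).

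Interferon-stimulated genes, which are the classical sign of an antiviral response and can be raised by double-stranded RNA, were partly higher with sh78. Of 40 tested, 10 were higher (against 9.69% of all genes) and 2 lower, with a median of 0.14, and 28 were not called. MX1, an antiviral GTPase, stood at 12.5, 10.3 and 14.9 CPM in scramble, 10.9, 9.595 and 14.4 CPM with sh76 and 24.9, 17.3 and 26.8 CPM with sh78 (log2 fold change 0.98 ± 0.10 SE, adjusted p = 2.15e-10). IFI6, an inhibitor of apoptosis, stood at 8.57, 5.86 and 8.11 CPM with sh76 and 16.4, 10.4 and 12.9 CPM with sh78 (log2 fold change 0.82 ± 0.13 SE, adjusted p = 2.74e-06). In both genes sh76 and scramble overlapped and sh78 lay above sh76. IFI44L stood at 9.81, 8.96 and 10.5 CPM with sh76 and 16.8, 15.5 and 15.7 CPM with sh78 (log2 fold change 0.71 ± 0.11 SE, adjusted p = 4.38e-06). ISG15, a ubiquitin-like modifier outside the rule, had a log2 fold change of 0.38 (SE 0.08). IFITM1 was called higher as well, but the neighbouring IFITM2, whose counts are 812.0% of its own, overlaps it on the same strand. IFIT3 and BST2, also antiviral, did not pass (-0.04 and 0.10). Without the block 5 were called higher, and without sh78 replicate 1 the count was 6.

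The promoters of 3 of these genes are shown because the interferon-stimulated response element is the known site of their control. Capitals mark 2 copies of GAAA separated by any 2 bases (NN), searched on both strands, and matches can overlap; the windows are from RefSeq (GRCh38.p14), on the gene's own strand.
IFI6, minus strand, chr1:27672243-27672362: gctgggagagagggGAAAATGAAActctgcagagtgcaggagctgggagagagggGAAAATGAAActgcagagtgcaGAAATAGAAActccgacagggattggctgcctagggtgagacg
IFI44L, plus strand, chr1:78620268-78620397: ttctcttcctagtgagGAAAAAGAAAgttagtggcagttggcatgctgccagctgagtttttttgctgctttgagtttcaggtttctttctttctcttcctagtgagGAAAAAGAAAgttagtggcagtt
ISG15, plus strand, chr1:1013367-1013446: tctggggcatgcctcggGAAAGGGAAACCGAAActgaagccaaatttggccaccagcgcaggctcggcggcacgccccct
Of the 10 higher genes, 8 had a window and all 8 held the motif, while 16 of 23 genes that were not called and both lower genes held it too. Over all windows the share was 3.86%.

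**Figure D5:**
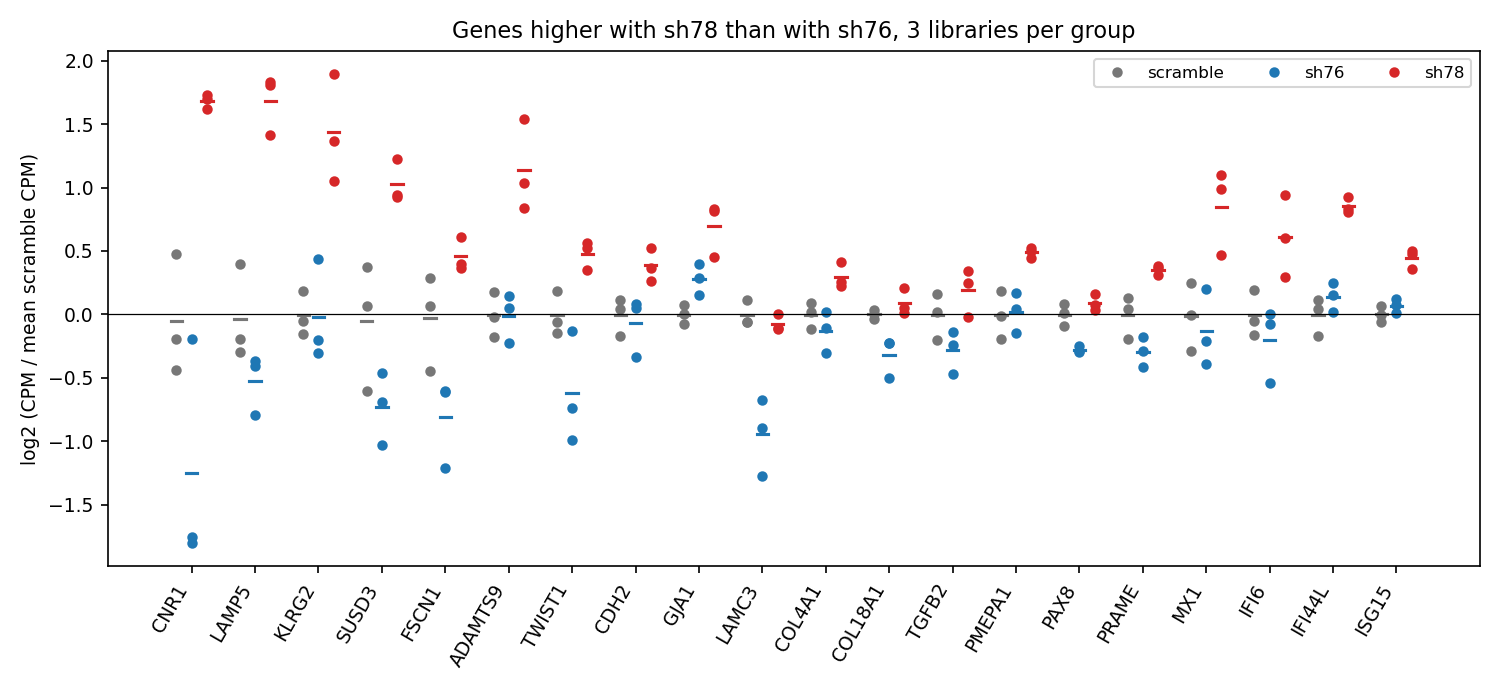
Log2 of CPM relative to the mean CPM of the 3 scramble libraries (vertical axis) for 20 genes higher with sh78, 3 libraries per group (points) with the group mean (short line). The sh78 points lie above the sh76 points for every gene shown. CNR1, LAMP5, KLRG2 and MX1 lie above scramble with sh78, while LAMC3 and PAX8 are near scramble with sh78 and below it with sh76.

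Genes that mark ovarian carcinoma differed without a common direction: 8 of 26 were higher (30.8%) and 5 lower (19.2%), with a median of 0.05, and without the block 2 were higher and 2 lower. PAX8, the lineage factor of serous carcinoma, stood at 953, 908 and 846 CPM in scramble, 740.2, 760.1 and 733 CPM with sh76 and 1006, 924 and 949.7 CPM with sh78 (log2 fold change 0.37 ± 0.04 SE, adjusted p = 2.89e-09). Scramble and sh78 overlapped, and sh76 lay below both. MUC16, which encodes the tumour marker CA125, was not called (-0.11, adjusted p = 0.281). MUC1, a surface mucin, had a log2 fold change of -1.09 (SE 0.08, adjusted p = 2.92e-10), with mean CPM of 67.8 ± 5.5 (SD, n = 3) with sh76 and 32.03 ± 6.49 with sh78. PRAME, a tumour antigen, had a log2 fold change of 0.65 (SE 0.05, adjusted p = 2.50e-13).

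Against scramble the groups of genes did not sit on 1 side. The medians of log2 fold change for sh76 and sh78 relative to scramble, which share the same 3 control libraries, were 0.27 and -0.38 for epidermal keratinisation, 0.18 and -0.10 for S100 proteins, -0.95 and -1.56 for kallikreins, 0.01 and -0.19 for glycolysis and -0.21 and 0.25 for neuronal genes. The kallikreins were lower than scramble in 6 of 8 tested members with sh76 and 8 of 8 with sh78. Of the 21 keratinisation genes, 7 were higher and 1 lower than scramble with sh76, and 2 were higher and 10 lower with sh78. Of the 40 interferon-stimulated genes, 13 were higher than scramble with sh76 and 21 with sh78. Over all tested genes, 9.63% were higher and 10.7% lower than scramble with sh76, and 9.79% and 10.1% with sh78. Between the 2 hairpins, lists of basic cell functions had medians near 0. Of 33 mitotic genes 3 were higher and none lower, with a median of 0.02. Of 39 DNA replication genes 4 were higher and 2 lower, and of 25 p53 targets 3 were higher and 5 lower. Among 21 tested selenoproteins, the family of GPX3 itself, 2 were higher (9.52%) and 3 lower (14.3%), GPX3 included. Without the block the mitotic and p53 lists had no call, 1 DNA replication gene was higher and none lower, and 1 selenoprotein was higher and 2 lower.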

How the data were processed

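RNA from 9 OVCAR3 libraries was sequenced, and the authors deposited a table of raw read counts and FPKM per gene. Reads were aligned to hg38 with HISAT2 2.0.5 and counted with featureCounts 1.5.0-p3, per the submitters' processing notes; their settings are not given in the sources used here. The raw counts as deposited were fitted with edgeR 4.0.16 (R 4.3.3) by robust quasi-likelihood on all 9 libraries, with TMM normalization, filterByExpr (minimum count 10, total 15; 17023 of 58735 genes kept) and a term for the replicate number (the block); 4 residual degrees of freedom remain. The block is part of the rule that defines the comparison, and same-numbered libraries deviated together in every pair. The SE is the size of the log2 fold change divided by the root of F. CPM values use TMM-scaled library sizes, except the sums of cell type markers, which use the total counts of each library. The fit was tested on simulated data. DESeq2 1.42.0 and limma 3.58.1 on the log2 of the deposited FPKM plus 1 were alternatives. The 56 gene lists and the members were chosen with earlier results of these data known, and the plot of lists shows those with at least 25% of at least 5 tested members called in 1 direction. Some genes, such as S100A8, S100A9, ERO1A, TGFB2 and KLK10, are on more than 1 list and are counted in each. Named genes are GPX3, GDF15, the 10 highest and 10 lowest called protein-coding genes whose hairpin groups do not overlap, with a mean FPKM of at least 1, and up to 4 such members of each list. Other list members named are outside this rule and were named after their values were seen. Of 171 genes named by the rule, 89 are overlapped by another gene with counts, in 26 by one with over 10% of their counts. Some members of the lists are not reported here by name.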

Additional observations from a re-analysis of the deposited data

How the results depend on the processing

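The count of genes called depended most on the replicate block. Without it, 629 genes were called in place of 3117 (336 higher, 293 lower), and lower members fell in number to 6 for epidermal keratinisation, 5 for S100 proteins, 2 for glycolysis, 3 for hypoxia-induced genes and 4 for MAPK feedback and immediate early genes; higher members came to 5 for interferon-stimulated genes, 3 for TGF-beta and BMP targets, 4 for neuronal genes and 5 for laminins, collagens and fibronectin. DESeq2 with the block called 1929 genes (1068 higher, 861 lower) and 6 interferon-stimulated genes higher. Limma on log2(FPKM + 1) called 1943 (989 higher, 954 lower), with 6 hypoxia-induced and 6 MAPK members lower. Leaving out 1 library at a time gave 1922 to 3207 genes (1078 to 1722 higher, 844 to 1485 lower), lowest without sh78 replicate 1. Members called lower ranged over 11 to 14 for epidermal keratinisation, 7 to 12 for S100 proteins, 9 to 13 for glycolysis, 7 to 11 for hypoxia-induced genes, 8 to 12 for MAPK genes and 6 to 7 for matrix genes, and stayed at 5 for kallikreins. Members called higher ranged over 6 to 10 for interferon-stimulated genes, 8 to 11 for TGF-beta and BMP targets, 6 to 10 for neuronal genes and 11 to 14 for matrix genes. The cause of these shifts was not tested. None of the 171 genes named by the rule changed sign under the alternatives run, but matrix genes had more higher than lower members with the block (12 and 7) and more lower than higher without it (6 and 5). Of 171 genes named by the rule, 82 kept their call without the block and 120 in all fits that left out 1 library. With 3 libraries per group, small differences of sparse genes were not detectable at this depth.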

Other observations

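Further lists held fewer or smaller differences of sh78 against sh76. Endoplasmic reticulum chaperones and folding factors were lower in 10 of 27 tested members with none higher, against 8.62% of all genes, but by little, with a median of -0.14, and 2 were lower without the replicate block. XBP1, the transcription factor of the unfolded protein response, stood at 322, 312 and 288 CPM with sh76 and 252, 248 and 245 CPM with sh78, with no overlap (log2 fold change -0.30 ± 0.04 SE, adjusted p = 5.02e-07). HSPA5, the central chaperone of this compartment, was not called (-0.09, adjusted p = 0.09). Of 29 targets of the oxidative stress factor NRF2, 8 were lower (27.6%) and 4 higher (13.8%, against 9.69% of all genes). Without the block 2 were lower and 1 higher. NQO1, a quinone reductase, stood at 102, 104 and 113 CPM with sh76 and 62.97, 70.02 and 78.4 CPM with sh78 (log2 fold change -0.60 ± 0.05 SE, adjusted p = 2.02e-12). SLC48A1, a heme transporter that overlaps HDAC7, was higher (0.52, adjusted p = 3.01e-11).

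Over all genes, 9.69% were higher and 8.62% lower with the block. Cholesterol synthesis genes were higher in 8 of 24 tested members (33.3%) and lower in 2 (8.33%). Without the block 1 was higher and none lower. The largest log2 fold change was 0.29 for TM7SF2, which overlaps VPS51 on the same strand. Genes of MHC class I presentation were lower in 6 of 18 (33.3%) and higher in 1 (5.56%). Without the block 1 was lower and none higher. TAPBP, which loads peptides, had a log2 fold change of -0.26 (SE 0.05, adjusted p = 5.07e-05), and HLA-B was the higher member (0.20). Of 15 tested genes of the RNA interference machinery 5 were higher (33.3%) and 1 was lower (6.67%). None was called in either direction without the block. Of 45 large-subunit ribosomal protein genes 11 were higher (24.4%) and none lower, with a median of 0.07, and none was called without the block. Desmosome and gap junction genes were lower in 6 of 20 and higher in 2 (3 and 1 without the block), fatty acid synthesis genes were higher in 7 of 25 and lower in 3 (0 and 0), and YAP and TEAD targets were higher in 6 of 22 and lower in 4 (3 and 0).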
